A study of Mus musculus with 132 samples.

Results

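Hormad1 and 9 other germline genes were followed in single cells of mouse embryos that had been cultured with a mimic of the microRNA miR-381-3p. The members were chosen by name: Hormad1, Sycp1, Sycp3, Dazl, Ddx4, Mael, Asz1, Tex19.1, Stk31 and Slc25a31, 10 of the 32245 genes in the count table, and each of them was present. Hormad1 had been selected on its higher level in 32-cell mimic cells than in 32-cell control cells, so that difference is given here as a description, with no test. All 10 passed the minimum of 1 count per 1000000 counts (CPM) pooled over all cells, which left 12582 genes for comparison.

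Embryos came from C57BL/6NCrl x DBA/2NHsd F1 females mated with males of the same cross. They were collected with 2 cells and kept in medium with either the miR-381-3p mimic or a scrambled negative control mimic, added at 5 or 10 µM, until they had 8 cells (embryonic day 2.5) or 32 cells (embryonic day 3.5). The groups held 30 cells of 8-cell control, 24 of 8-cell mimic, 39 of 32-cell control and 39 of 32-cell mimic embryos. The sequenced embryos received 10 µM for the 8-cell and 5 µM for the 32-cell stage according to the methods, while the labels tie no cell to a dose, so stage and dose cannot be told apart. Between 3 and 5 embryos were collected per group and stage, but the embryo behind each cell is not given. Each group was therefore 1 sample, no test between groups was possible, and differences are given by their size with intervals that cover counting error only.

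Germ cells use a set of genes that other cells keep silent. Chromosome axis proteins such as HORMAD1 and SYCP3, and the synaptonemal complex protein SYCP1, organise and pair homologous chromosomes in meiosis, while proteins of the germ granule or nuage serve piRNAs, the small RNAs that silence transposons. In embryonic stem cells and somatic cells many of these genes have CpG-rich promoters that are held silent by DNA methylation and by a Polycomb complex whose subunits E2F6 and MGA, the latter paired with MAX, recognise an E2F-type motif and an E-box. DNA methylation falls to a low level in the preimplantation embryo.

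The mimic copies mature miR-381-3p, which lies in the mouse genome at chr12:109726870-109726891 on the plus strand (GRCm38). Its sequence is shown, from RefSeq, because pairing to targets starts at the seed, bases 2 to 8, which is in capitals.
miR-381-3p: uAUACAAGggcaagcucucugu
In the longest annotated 3′ UTR (GENCODE M21) Dazl alone among the 10 members held a match to this seed. Of 11690 tested genes with a 3′ UTR, 24.2% held a match of 7 or 8 bases. The 3′ UTR of Dazl, of 1854 bases, held 2, and both are shown with 11 bases on either side and the match in capitals.
Dazl 7-base match at chr17:50279892-50279898, minus strand: tgttgatctatCTTGTATtagtcctttcc
Dazl 8-base match at chr17:50279422-50279429, minus strand: ttacctatttcCTTGTATAcacgaataaaa
The 3′ UTRs of the other members were up to 1028 bases long and had 0 matches, also when every annotated 3′ UTR was searched. A match is a description of the sequence and not a measured site.

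RefSeq promoters (GRCm38.p6, 250 bases before to 50 after the start) were found for all 10 members. Each held more CpG dinucleotides, 15 to 38, than the median of 7 over 27025 promoters. The median was 21 over the 9773 promoters of tested genes, and Sycp1 (21), Asz1 (17), Tex19.1 (16) and Sycp3 (15) were not above it. The motif GCGGGA, of the E2F6 type, was searched on both strands and found in 7 members, against 20.0% of all promoters and 35.7% of those of tested genes. The E-box CACGTG, which reads the same on both strands, was also found in 7 members, against 7.24% and 10.5%. Both motifs stood together in 6 members (Hormad1, Sycp1, Sycp3, Ddx4, Mael and Slc25a31), against 2.05% and 4.0%. No matches overlapped each other in the members, and a match says nothing on binding in these cells. Hormad1 and Sycp3 are shown because each held 1 GCGGGA and 2 CACGTG, and Dazl because it held neither. Capitals mark the matches. The Hormad1 window is chr3:95559427-95559726 on the plus strand, that of Sycp3 chr10:88459337-88459636 on the plus strand and that of Dazl chr17:50293571-50293870 on the minus strand.
Hormad1: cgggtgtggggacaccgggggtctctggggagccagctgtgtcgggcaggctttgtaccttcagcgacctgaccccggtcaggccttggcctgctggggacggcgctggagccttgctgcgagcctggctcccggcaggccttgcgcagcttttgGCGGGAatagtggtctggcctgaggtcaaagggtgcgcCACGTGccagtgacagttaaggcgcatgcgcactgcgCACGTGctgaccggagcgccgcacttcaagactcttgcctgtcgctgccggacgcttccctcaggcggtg
Sycp3: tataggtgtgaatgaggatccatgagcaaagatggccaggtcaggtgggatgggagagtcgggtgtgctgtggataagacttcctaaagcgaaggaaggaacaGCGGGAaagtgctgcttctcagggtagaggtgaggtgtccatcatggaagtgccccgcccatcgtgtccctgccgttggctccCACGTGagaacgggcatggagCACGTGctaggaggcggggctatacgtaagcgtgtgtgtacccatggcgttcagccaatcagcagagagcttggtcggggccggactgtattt
Dazl: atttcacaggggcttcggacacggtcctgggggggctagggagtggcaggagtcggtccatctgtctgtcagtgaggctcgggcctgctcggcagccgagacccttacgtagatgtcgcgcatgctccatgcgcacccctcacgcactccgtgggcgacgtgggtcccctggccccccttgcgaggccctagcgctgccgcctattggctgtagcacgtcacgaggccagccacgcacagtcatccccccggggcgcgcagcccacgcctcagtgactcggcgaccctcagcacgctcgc
In Hormad1 the E2F-type motif began 95 bases before the start and the E-boxes 57 and 20 bases before it.

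Total counts per cell ranged from 544866 to 3461022. A cell at its group's median depth that had no count of a gene could still hold up to 3 counts, which is 2.31 to 2.55 CPM. All 39 32-cell control cells had more counts of the Y-linked genes Ddx3y, Eif2s3y and Uty than of Xist, the RNA of the silenced X chromosome. No 32-cell mimic cell did, and Xist was at 1080 CPM in the pooled mimic cells and 5.55 CPM in the control cells. The comparison of 32-cell mimic with control therefore cannot be told apart from one of female-type and male-type cells. Among 8-cell embryos, Xist-only cells (23 control, 11 mimic) and cells with more Y-linked counts (7 control, 8 mimic) occurred under either treatment. Every comparison of stages below, also of the gene lists, therefore differs in the mix of these cells too. The cells also carry numbers, which fall into runs with at most small gaps. What a run stands for is not given. The 8-cell cells with more Y-linked counts were numbered 9 to 16 in control and 79 to 86 in mimic embryos. No other cell of their group lay between. Each set could come from a single embryo, so a split by these counts may compare embryos. Values are given by run where they bear on a result.

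Hormad1 (ENSMUSG00000028109), at chr3:95559677-95587671 on the plus strand, codes for a HORMA-domain protein of the meiotic chromosome axis. No other annotated gene overlaps it. Its transcripts were present at the 8-cell stage in both treatments, at the 32-cell stage in mimic cells, and nearly absent in 32-cell control cells. In 8-cell control cells it ranged from 0 to 72.3 CPM with a median of 32.5, and 25 of 30 cells had a count. In 8-cell mimic cells it ranged from 0 to 90.7 CPM with a median of 12.9, and 18 of 24 cells had a count. The ranges of these groups overlapped. In 32-cell control cells 1 count was found in 1 of 39 cells (2.56%, exact binomial 95% interval 0.0649 to 13.5). In 32-cell mimic cells Hormad1 ranged from 0 to 162.7 CPM with a median of 27.8, and 29 of 39 cells had a count (74.4%, 95% interval 57.9 to 86.96). The lone control cell was at 0.605 CPM and the lowest mimic cell with a count at 0.993 CPM. Each of these cells held 1 count, which is under the limit of 2.31 to 2.55 CPM, and 10 mimic cells were at 0.

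Pooled over cells, Hormad1 was at 31.8 CPM (exact Poisson 95% interval 30.1 to 33.7) in 8-cell control, 26.04 CPM (24.3 to 27.9) in 8-cell mimic, 0.0176 CPM (0.000445 to 0.0979) in 32-cell control and 49.8 CPM (47.9 to 51.7) in 32-cell mimic cells. The order of the groups was thus 32-cell mimic, 8-cell control, 8-cell mimic and, far below, 32-cell control. The spread of single cells overlapped throughout the upper 3. Read between stages, the 32-cell level of Hormad1 was 0.000552 of the 8-cell level in control cells (counting interval 1.40e-05 to 0.00308, on 1 count), and 1.91-fold higher (counting interval 1.76 to 2.07) in 32-cell than in 8-cell mimic cells. The ratio of 32-cell mimic to control, the contrast that chose the gene, was 2831 with a counting interval of 508 to 111846, which is wide because it rests on 1 control count. With all cells thinned to 522178 counts each, 25 of 30, 17 of 24, 1 of 39 and 28 of 39 cells still had a count. The 32-cell mimic cells with Hormad1 had a median of 7479 detected genes and those without it 7122.

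Hormad1 was found in both kinds of 8-cell cell. All 7 8-cell control cells with more Y-linked than Xist counts had it, at 12.1 to 58.9 CPM, and their pooled level of 30.1 CPM (26.9 to 33.5) lay close to the 32.6 CPM (30.4 to 34.9) of the 23 cells with Xist and no Y-linked count. In 8-cell mimic cells it was found in 7 of 8 cells with more Y-linked counts and in 8 of 11 with Xist only, at 41.9 and 16.04 CPM pooled. At the 32-cell stage no group held both kinds of cell, so the same reading was not possible there. Among 32-cell mimic cells, run 1, of the lowest numbers, was at 29.5 CPM with counts in 14 of 18 cells, run 2 at 77.4 CPM in 10 of 12 and run 3 at 45.6 CPM in 5 of 9. All 3 runs held cells with Hormad1 and cells without. Of the 2 runs of 32-cell control cells, 1 held 0 counts and the other 1. The 2 8-cell control cells numbered 87 and 88, apart from the other 28, were both at 0.

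**Figure D1:**
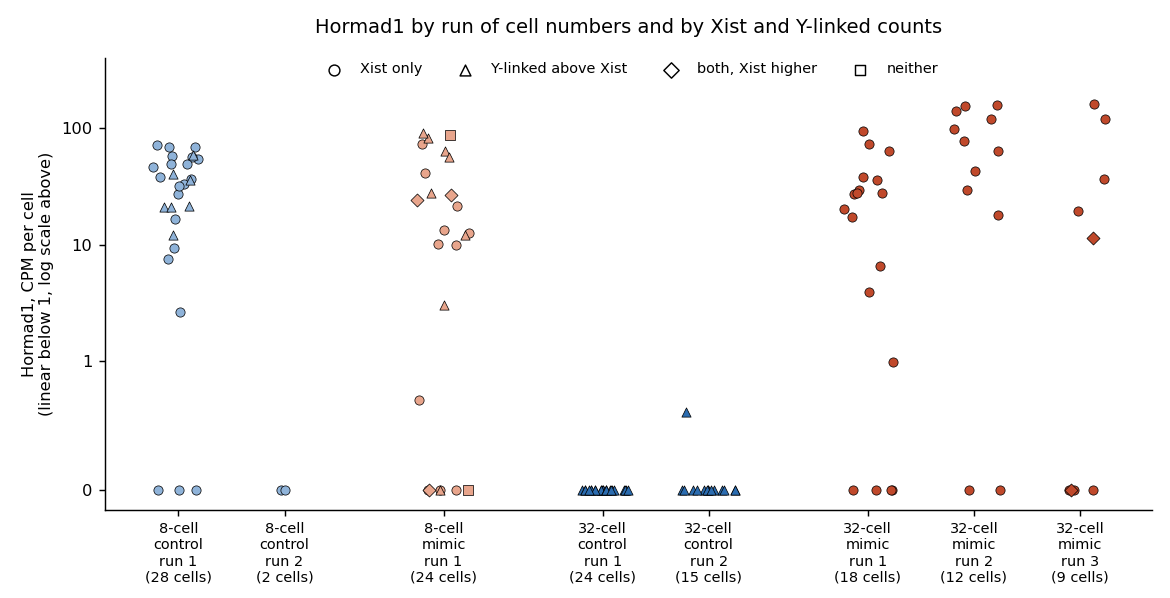
Hormad1 in every cell, in CPM on an axis that is linear below 1 and logarithmic above, by group and by run of consecutive cell numbers; the shape of a point tells which of Xist and the Y-linked genes had counts. The 39 points of 32-cell control lie at or near 0, while triangles (more Y-linked counts) reach high levels in both 8-cell groups and all 3 runs of 32-cell mimic hold high points.

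Few genes shared this pattern. Of the 12582 tested, Hormad1 and Sec1 alone were under 0.1 CPM in 32-cell control cells and at 10 CPM or more in each of the other 3 groups, limits that were chosen after the Hormad1 levels were seen. For the other groups the same limits left 1 gene for 8-cell control, 8 for 8-cell mimic and 3 for 32-cell mimic, the last including Ddx3y and Eif2s3y. Sec1, a fucosyltransferase gene, was at 65.7, 20.2, 0 and 22.6 CPM in 8-cell control, 8-cell mimic, 32-cell control and 32-cell mimic cells. In the ranking of log2 changes (the difference of log2(CPM + 1)) from 32-cell control to mimic, Hormad1 stood in place 2 with 5.64, behind Xist with 7.37 and ahead of Tap1 with 5.61, Rhox5 with 5.08 and Ftx with 4.90. This is the contrast that chose Hormad1, and it also sets female-type against male-type cells.

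Sycp1 (chr3:102818499-102936100, minus strand) codes for the transverse filament that zips paired chromosomes together. It was highest at the 8-cell stage. It ranged from 0 to 159.3 CPM (median 32.95) over 8-cell control and from 0 to 144.6 CPM (median 18.7) over 8-cell mimic cells, with counts in 28 of 30 and 15 of 24 cells. At the 32-cell stage the highest control cell was at 31.4 CPM and the highest mimic cell at 111.8 CPM, both with a median of 0 and with counts in 10 and 16 of 39 cells. Pooled, these were 40.5, 31.8, 2.02 and 9.52 CPM. Pooled, Sycp1 was lower at the 32-cell stage, 20.0-fold in control and 3.34-fold in mimic cells, and the ranges of single cells overlapped. The log2 change between mimic stages, -1.64, was -0.74 against 8-cell cells with Xist only and turned to 1.25 with the Y-linked gene Kdm5d also counted, which left 3 such 8-cell mimic cells.

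Sycp3 (chr10:88459569-88473236, plus strand) codes for an axis protein along which SYCP1 is anchored. Pooled over all cells it differed least with stage among the meiotic members. Against 8-cell mimic cells with more Y-linked counts its log2 change was 0.34 and that of Hormad1 0.24. Without run 1 of 8-cell control the control stage changes were 1.12 and 0.025. Pooled levels were 13.1 CPM in 8-cell control, 17.2 in 8-cell mimic, 7.29 in 32-cell control and 20.2 in 32-cell mimic cells. Counts were found in 17 of 30, 13 of 24, 10 of 39 and 24 of 39 cells, the highest of them at 43.6, 85.7, 93.2 and 117.5 CPM, and the lowest of each group at 0. Median cells were at 4.23, 2.39, 0 and 9.74 CPM. The gene overlaps Chpt1 on the opposite strand, and counts from a protocol without strand can be shared between such genes. Chpt1 was at 173.1, 139.4, 72.8 and 54.5 CPM in the same order. Pooled, both genes were lower in 32-cell than in 8-cell control cells, while from 32-cell control to mimic Sycp3 was higher and Chpt1 lower. The control stage change of Sycp3, -0.76, turned to 1.12 without run 1 of 8-cell control and to 0.26 against Xist-only cells with Kdm5d counted. Sycp1 and Stk31 overlap predicted genes that are not rows of the count table.

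Dazl and Ddx4 code for RNA-regulating proteins by which germ cells are recognised. Dazl (chr17:50279395-50293636, minus strand) is an RNA-binding protein, and Ddx4 (chr13:112598333-112652475, minus strand) an RNA helicase of the germ granule. Both were rare, with a median of 0 in every group. Dazl was found in 4 of 30 8-cell control, 4 of 24 8-cell mimic, 2 of 39 32-cell control and 0 of 39 32-cell mimic cells, with highest cells of 115.3, 78.7, 119.7 and 0 CPM. Its pooled levels were 8.36, 10.3 and 2.72 CPM and, in 32-cell mimic cells, 0, where 3 counts would be 0.0563 CPM, and 3 cells 7.69% of the group. The 2 control cells, 1 in each run, carried all of the 32-cell Dazl. Ddx4 was found in 9 of 30, 4 of 24, 2 of 39 and 0 of 39 cells in the same order, with highest cells of 91.96, 47.3, 86.98 and 0 CPM and pooled levels of 9.31, 3.53, 1.81 and 0 CPM. Against the 3-count limit Dazl was at least 48.4-fold and Ddx4 at least 32.1-fold lower in 32-cell mimic than control cells, but 2 cells set each value. Both Ddx4 cells lay in run 1 of the control cells. Without that run Ddx4 was at 0 under both treatments at 32 cells, a log2 change of 0 in place of -1.49, and the change between the stages of control was -3.37 in place of -1.88. The seed matches shown above belong to Dazl. With counts in so few control cells, these data cannot show whether its transcripts differed with the mimic. At the 8-cell stage its pooled level was 10.3 CPM with the mimic and 8.36 CPM without.

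Mael, Asz1, Tex19.1 and Stk31 belong to the nuage or to the defence against transposons. Mael (chr1:166201201-166238747, minus strand), which serves piRNA-guided silencing, was at 26.1, 8.70, 5.13 and 11.6 CPM pooled, in 8-cell control, 8-cell mimic, 32-cell control and 32-cell mimic cells. It was found in 16 of 30, 7 of 24, 5 of 39 and 9 of 39 cells, with medians of 4.75, 0, 0 and 0 CPM and highest cells of 134.95, 52.2, 91.3 and 188 CPM. The higher 32-cell mimic level came from run 1 (25.2 CPM, 7 of 18 cells) and run 3 (6.94 CPM, 2 of 9), while run 2 had 0 of 12. Without run 1 the difference turned round, from a log2 change of 1.04 to -0.50.

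Asz1 (chr6:18050964-18109061, minus strand), a protein of the mitochondrial surface next to the nuage, was lower at the later stage, 1.51-fold in control and 3.23-fold in mimic cells. Pooled levels were 23.2, 28.9, 15.4 and 8.94 CPM, and counts were found in 17 of 30, 11 of 24, 16 of 39 and 10 of 39 cells. Cells ranged from 0 to 120.7, 204, 130.5 and 61.6 CPM, with medians of 7.09, 0, 0 and 0, and no group stood apart. At the 8-cell stage Asz1 was found in 14 of 23 control and 8 of 11 mimic cells with Xist only, at 31.1 and 35.5 CPM pooled. In cells with more Y-linked counts it was found in 3 of 7 control and 0 of 8 mimic cells, at 4.32 CPM and 0. Set against those Y-linked cells alone, the stage difference turned round under both treatments, from a log2 change of -0.56 to 1.62 in control and from -1.59 to 3.31 in mimic embryos.

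Tex19.1 (chr11:121146143-121148319, plus strand), which restrains retrotransposons in germ cells, pluripotent cells and placenta, was the most abundant member and the only one found in every 32-cell cell. Cells ranged from 0 to 357 CPM (median 126.8) in 8-cell control and from 0 to 288 CPM (median 104.02) in 8-cell mimic embryos. They ranged from 122 to 759 CPM (median 247) in 32-cell control and from 157.3 to 1107 CPM (median 528) in 32-cell mimic embryos. Pooled, this was 141.1, 103.8, 300.1 and 518 CPM. Levels were higher at the later stage under both treatments, by 2.13-fold in control and 4.99-fold in mimic cells, and ranges of 32-cell control and mimic cells overlapped. All 3 runs of 32-cell mimic cells (482 to 574 CPM) lay above both runs of control cells (299 and 302 CPM). Tex19.1 has a paralogue, Tex19.2, at 0, 0.679, 19.6 and 32.4 CPM in the same order, and reads that fit both could be divided between them.

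Stk31 (chr6:49395604-49469501, plus strand), a Tudor-domain protein of germ cells, was at 32.3, 26.01, 49.5 and 64.8 CPM, in 28 of 30, 13 of 24, 25 of 39 and 31 of 39 cells. Its cells ranged from 0 to 251, 138.3, 204 and 239.9 CPM, with medians of 27.03, 6.71, 15.7 and 48.99. Pooled, it was higher at the 32-cell stage, 1.53-fold in control and 2.49-fold in mimic cells. In control cells this direction depended on how cells were averaged, with a log2 change of 0.60 pooled, 0.20 for the mean of CPM over cells and -0.84 for the mean of log2(CPM + 1), and the median cell was lower at the 32-cell stage.

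Slc25a31 (chr3:40708855-40726096, plus strand), the ADP/ATP carrier of germ cell mitochondria, was found in few cells of any group. Counts were present in 5 of 30 8-cell control, 4 of 24 8-cell mimic, 2 of 39 32-cell control and 1 of 39 32-cell mimic cells. The highest cells were at 105.6, 347, 26.2 and 45.7 CPM, the median was 0 in each group, and pooled levels were 10.6, 15.2, 0.404 and 0.864 CPM. One cell gave 88.5% of the 8-cell mimic counts and another all of the 32-cell mimic counts, so its levels describe few cells.

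**Figure D2:**
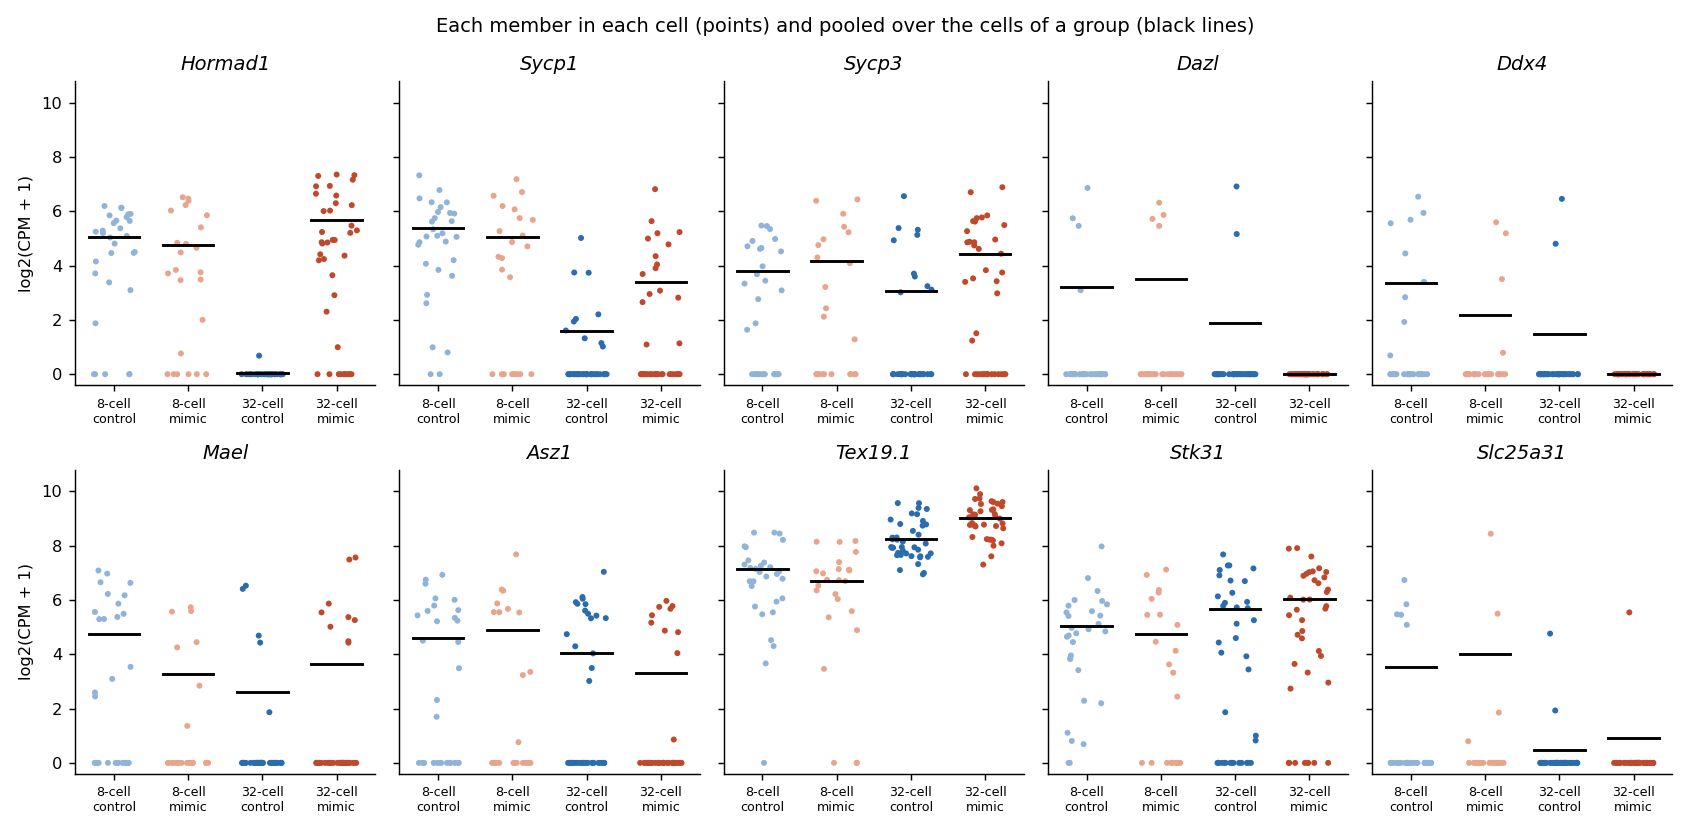
The 10 members in every cell, as log2(CPM + 1), with a point per cell and a black line at the pooled level of the group. Tex19.1 is present in nearly all cells, Hormad1 is missing from 32-cell control cells apart from 1 count, and Dazl and Ddx4 lie at 0 in all 39 32-cell mimic cells.

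Levels can be set between genes only per length. Per kilobase of the longest coding transcript, Tex19.1 led every group, from 59.5 CPM per kb in 8-cell mimic to 297 in 32-cell mimic cells. Hormad1 came next in 8-cell control (21.1), 8-cell mimic (17.2) and 32-cell mimic cells (32.9), and was last in 32-cell control cells with 0.0116. Stk31, at 15.3, was in the second place there. Dazl and Ddx4 were among the lowest 3 in every group except 32-cell control, at 0.915 and 0.601, where they stood above Hormad1, Slc25a31 and Sycp1.

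The members were then compared between groups, with a log2 change of 1 or more in either direction counted as past the fold. From 32-cell control to mimic, 4 of 10 members were higher by that much (Hormad1, Sycp1, Sycp3 and Mael) and 2 lower (Dazl and Ddx4), where 13.3% of all tested genes were higher and 8.4% lower. This is the contrast that chose Hormad1, and nothing is read from these counts. The median log2 change was 0.60 over the members and 0.05 over all tested genes. Of the members past the fold Mael at 1.04 and Sycp3 at 1.36 were nearest to it, and of those not past it Tex19.1 at 0.79 and Asz1 at -0.72. Without run 1 of the mimic cells 2 members were higher and 3 lower, where 13.0% of all tested genes were higher and 12.6% lower. Without run 1 of the control cells 3 were higher and 1 lower, where 17.4% and 8.39% were.

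From 8-cell control to mimic, 0 of 10 members were past the fold upwards and 2 downwards (Ddx4 at -1.19 and Mael at -1.48), against 11.4% and 12.4% of all tested genes. Both turned round without run 1 of 8-cell control, which left 2 control cells, to 2.18 for Ddx4 and 3.28 for Mael, and Ddx4 also with Kdm5d counted as Y-linked, to 1.36. Hormad1 was at 4.76 against those 2 cells, which had 0 counts of it. With all cells Hormad1 lay at -0.28 (counting interval -0.46 to -0.10), at -0.98 among cells with Xist only and at 0.47 among cells with more Y-linked counts. With Kdm5d also counted as Y-linked it lay at -2.96 in the former. The median was -0.29 over the members and 0.00 over all genes. These counts changed when the cells were split. Among cells with Xist only 4 members were lower and 1 higher, against 15.3% and 13.8% of all tested genes. Among cells with more Y-linked counts 6 were lower and 0 higher, against 21.6% and 18.7%.

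Between the stages, 6 of 10 members were lower in 32-cell than in 8-cell control cells (Hormad1 -5.01, Sycp1 -3.78, Slc25a31 -3.05, Mael -2.15, Ddx4 -1.88 and Dazl -1.33) and 1 was higher (Tex19.1, 1.08). Of all tested genes 22.5% were lower and 30.2% higher. In mimic cells 5 of 10 were lower (Dazl -3.49, Slc25a31 -3.12, Ddx4 -2.18, Sycp1 -1.64 and Asz1 -1.59) and 2 higher (Tex19.1, 2.31, and Stk31, 1.29), against 19.6% and 31.9% of all tested genes. Set against 8-cell mimic cells with more Y-linked counts 1 member was lower and 3 were higher, where 18% of all tested genes were lower and 38.9% higher. Asz1 turned to 3.31 there and Slc25a31 to 0.45, while Dazl and Ddx4 were at 0 in both groups. Set against Xist-only cells with Kdm5d counted 2 were lower and 4 higher, where 17.9% and 42% were. Sycp1 turned to 1.25 there and Slc25a31 to 0.90. Hormad1 at 0.91, Mael at 0.38 and Sycp3 at 0.22 did not reach a log2 change of 1 in mimic cells. Hormad1 passed it without run 1 of the 32-cell mimic cells (1.22), against 8-cell cells with Xist only (1.57) and with Kdm5d counted as well (3.44). It was at 0.24 against 8-cell cells with more Y-linked counts and at 0.47 without run 2. Mael passed it against those Y-linked cells (1.92) and with thinned cells (1.04), and in the other direction without run 1 (-1.16). Sycp3 passed it with Kdm5d counted (3.11). Without run 2 of the 32-cell mimic cells 1 member was higher, where 31.6% of all tested genes were. Run 1 of 8-cell control holds 28 of 30 cells, and against the 2 others alone 5 members were higher and 2 lower in 32-cell control cells, where 45.4% of all tested genes were higher and 17.9% lower. The medians were -1.60 in control and -0.68 in mimic cells, where those of all tested genes were 0.17 and 0.26. The 2 stage comparisons and the 2 treatment comparisons use the same 4 groups, so they are not independent of each other or of the contrast that chose Hormad1.

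**Figure D3:**
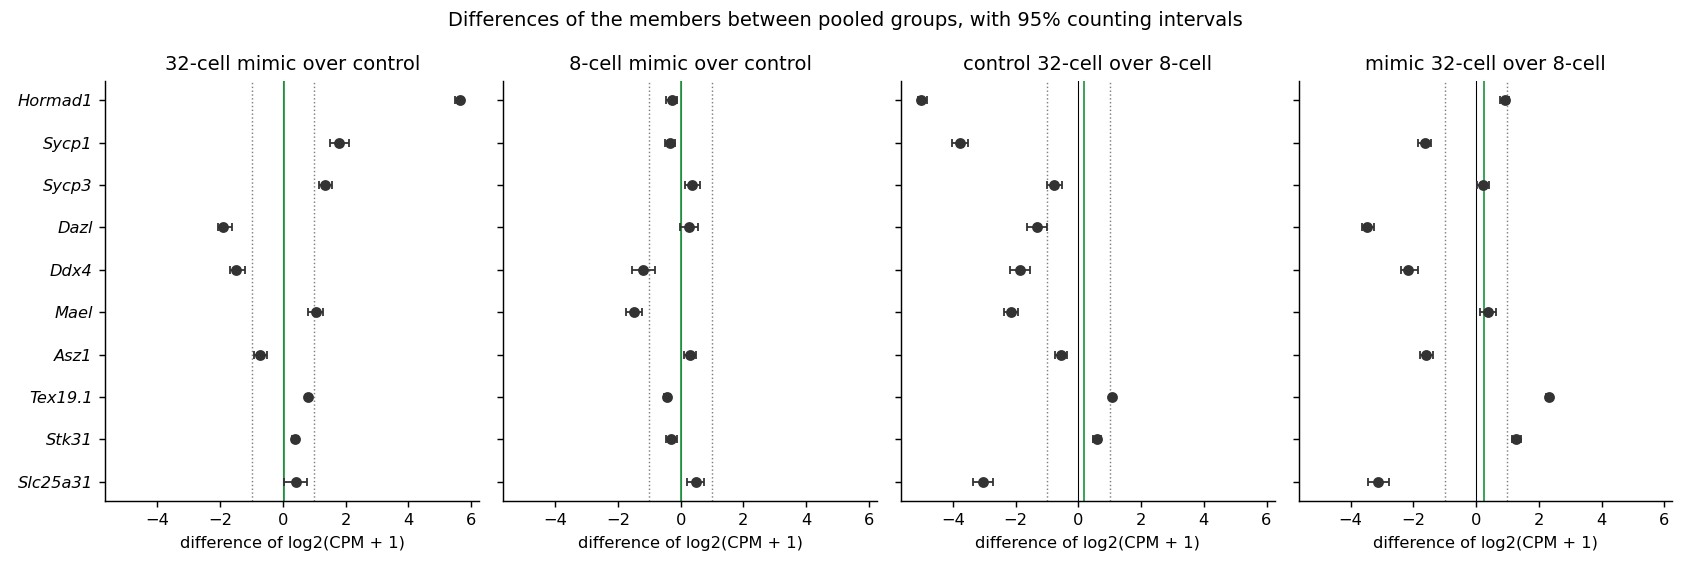
The difference of log2(CPM + 1) for each member in 4 comparisons of pooled groups, with bars for the 95% counting interval, dotted lines at a log2 change of 1 in either direction and a green line at the median of all tested genes. Hormad1 lies at 5.64 from 32-cell control to mimic and at -5.01 from 8-cell to 32-cell control, and between the dotted lines in the other 2 comparisons.

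Clustering placed 25 of 39 32-cell control cells and 10 of 39 mimic cells in an inner cell mass-like (ICM-like) class, and the rest in a trophectoderm-like (TE-like) class, with the members and the class markers left out of the clustering. Calling cells by the marker score instead gave 25 and 17 ICM-like cells, so the class of some mimic cells is uncertain. Hormad1 was found in both classes of mimic cells, in 7 of 10 ICM-like cells at 68.3 CPM (63.8 to 73.1) pooled and in 22 of 29 TE-like cells at 44.1 CPM (42.1 to 46.2). Its only control count lay in an ICM-like cell. In control cells Dazl, Ddx4, Mael and Slc25a31 were found in 2, 2, 5 and 2 ICM-like cells alone, at 4.76, 3.16, 8.97 and 0.706 CPM, and were at 0 in the 14 TE-like cells, where 3 counts would be 0.123 CPM. Sycp3 stood at 10.6 CPM in ICM-like and 2.92 CPM in TE-like control cells, and at 4.34 CPM in ICM-like and 25.1 CPM in TE-like mimic cells. In ICM-like mimic cells 1 cell gave 96.3% of its counts. Stk31 was at 44.6 and 56.1 CPM in control and 102.4 and 53.4 CPM in mimic cells, in the same order. Asz1 was at 20.7 and 8.26 CPM in control and 2.33 and 10.96 CPM in mimic cells, the 2.33 CPM from 1 cell of 10. With 10 to 29 cells in a class, and unknown embryos, no difference between classes could be tested.

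Within single cells the members were found together without varying together. Of the 10, a median of 6 had a count in an 8-cell control cell, 5 in an 8-cell mimic cell, 3 in a 32-cell control cell and 4 in a 32-cell mimic cell. At least 2 were found in every cell except 1 of 32-cell control. Over the cells of a group, Pearson's r of log2(CPM + 1) between members with counts in 10 or more cells ranged from -0.39 to 0.34, and its median was between -0.02 and 0.02 in each group. The highest in 32-cell mimic cells was 0.26, between Hormad1 and Tex19.1 over 39 cells, which fall into 3 runs and differ in depth. The genes most like Hormad1 over these 39 cells, among 9422 with counts in 10 or more, were 2410018L13Rik (r = 0.66), BC048679 (0.64), Wdr61 (0.59), Nrf1 (0.58) and Zfp84 (0.54). None of these is a member or on a germline list, and with so many genes searched such values are a description only.

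Other genes of the same pathways were taken from lists, which had been drawn up with earlier results known. Of 37 further genes of the meiotic axis, synapsis and recombination in the table, 23 passed the minimum. From 32-cell control to mimic 5 of these were past the fold upwards and 0 downwards, against 13.3% and 8.4% of all tested genes. Among the 5 were Majin, which tethers telomeres to the nuclear membrane (0.228 and 7.42 CPM), Hormad2, the paralogue of Hormad1 (3.46 and 18.4), Tex12, of the central element (0.949 and 4.71), and Mlh3, of crossover repair (15.4 and 37.6). In this order they had counts in 1 and 6, 10 and 16, 4 and 9, and 11 and 26 cells. The median log2 change of the 23 was 0.42. From 8-cell to 32-cell control 13 of 23 were lower and 2 higher, with a median of -1.35, where 22.5% of all tested genes were lower and 30.2% higher. From 8-cell to 32-cell mimic 9 were lower and 2 higher, with a median of -0.72, where 19.6% were lower and 31.9% higher. From 8-cell control to mimic 3 were higher and 4 lower, where 11.4% and 12.4% were. Tex11, of crossover formation, was at 34.9 CPM in 8-cell control and 3.14 CPM in 8-cell mimic cells, and had 1 count in 32-cell control cells. Psmc3ip, a partner of the meiotic recombinases, was at 41.5 and 95.7 CPM in 8-cell control and mimic cells. Sycp2, of the chromosome axis, was at 8.77 and 11.4 CPM there and at 0 in both 32-cell groups. Rec8, the meiotic cohesin, was higher at the later stage, at 0.218 and 5.31 CPM in control and 1.59 and 9.22 CPM in mimic cells.

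Of 21 genes of the piRNA pathway and nuage, 15 passed the minimum, and from 32-cell control to mimic 4 were higher and 3 lower past the fold (all tested genes 13.3% and 8.4%). Higher were Tdrd12 (0.369 and 17.7 CPM), Gpat2 (1.42 and 21.1), Tdrd5 (0.615 and 5.35) and Fkbp6, a co-chaperone (43.8 and 163.4). In this order they had counts in 1 and 13, 4 and 11, 2 and 6, and 26 and 37 cells. Lower were Mov10l1, an RNA helicase (12.2 and 1.80 CPM), Tdrd9 (3.53 and 0.376) and Tdrkh (3.76 and 1.07). These had counts in 4 and 2, 3 and 2, and 4 and 1 cells, so few cells set their values. The list had no common direction there, with a median of -0.42. Between the stages 8 of 15 were lower and 3 higher in control (all tested genes 22.5% and 30.2%), and 7 lower and 4 higher in mimic cells (19.6% and 31.9%). Exd1 was lower at the later stage, at 54.3 and 0.949 CPM in control and at 40.6 and 0.282 CPM in mimic cells. Among those higher were Pld6, of piRNA processing, in control (1.31 and 8.42 CPM) and Tdrd12 in mimic cells (2.20 and 17.7 CPM). At the 8-cell stage 1 was higher with the mimic, Tdrd3, of the Tudor-domain family, at 8.17 CPM without and 20.7 CPM with it. Also 1 was lower there, Piwil2, a protein that binds piRNAs, at 132.4 and 45.7 CPM, where 11.4% of all tested genes were higher and 12.4% lower.

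Of 28 other germline genes 18 passed the minimum, with 3 higher and 3 lower from 32-cell control to mimic (all tested genes 13.3% and 8.4%). Tuba3a, a tubulin, was at 0 in 32-cell control cells (3 counts would be 0.0527 CPM) and at 12.2 CPM in mimic cells, whereas the 8-cell levels were 10.83 CPM in control and 0 in mimic cells. Dpep3, a dipeptidase, was at 16.01 and 48.2 CPM, and Tex101 at 1 count and 2.89 CPM. At the 32-cell stage Tuba3a had counts in 0 control and 10 mimic cells, Dpep3 in 13 and 28 and Tex101 in 1 and 3. Prdm14 (8.17 and 1.05 CPM), Dnd1 (4.20 and 0.319) and Brdt (9.88 and 3.34) were lower in mimic cells. These had counts in 10 and 3, 5 and 2, and 9 and 7 cells. Between the stages 8 of 18 were lower and 6 higher in control, with a median log2 change of -0.74 (all tested genes 22.5% and 30.2%). In mimic cells 5 were lower and 7 higher, with a median of 0.76 (19.6% and 31.9%). In control cells D1Pas1 and Nanos3 were lower at the later stage, at 30.6 and 11.7 CPM against 2 counts each, while Tex19.2 was at 0 and 19.6 CPM and Dnd1 at 0.0544 and 4.20 CPM. From 8-cell control to mimic 1 was higher and 5 were lower (11.4% and 12.4%).

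Factors known to repress germline genes were compared in the same way. All 24 passed the minimum, and from 32-cell control to mimic 0 were past the fold upwards and 4 downwards, with a median of -0.08, where 13.3% of all tested genes were higher and 8.4% lower. The 4 were Uhrf1, which maintains DNA methylation (263 and 83.5 CPM), Hdac1, a histone deacetylase (229.7 and 107.7), Setdb1, a histone H3K9 methyltransferase (83.8 and 40.2), and Dnmt1, the maintenance methyltransferase (72.3 and 35.6). Dnmt1 at -1.002, Setdb1 at -1.04 and Hdac1 at -1.09 only just passed the limit. Atf7ip at 0.995 and E2f6 at 0.97 just missed it upwards, so the split depends on the limit. Between the stages 6 of 24 were lower and 1 higher in control (all tested genes 22.5% and 30.2%), and 6 lower and 2 higher in mimic cells (19.6% and 31.9%). Uhrf1 was higher at the later stage under both treatments, from 12.96 CPM in 8-cell control and 19.3 in 8-cell mimic cells. From 8-cell control to mimic 3 of 24 were higher and 2 lower, against 11.4% and 12.4% of all tested genes. Higher were E2f6, which binds the E2F-type motif (15.1 and 33.4 CPM), Yaf2, of Polycomb complexes (3.43 and 16.5), and Setdb1 (43.6 and 113.7). Lower were Rnf2, of Polycomb complexes (355 and 94.8 CPM), and Pcgf6, of the germline-silencing complex (85.4 and 38.95). Whether these levels have a part in those of the members was not tested.

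**Figure D4:**
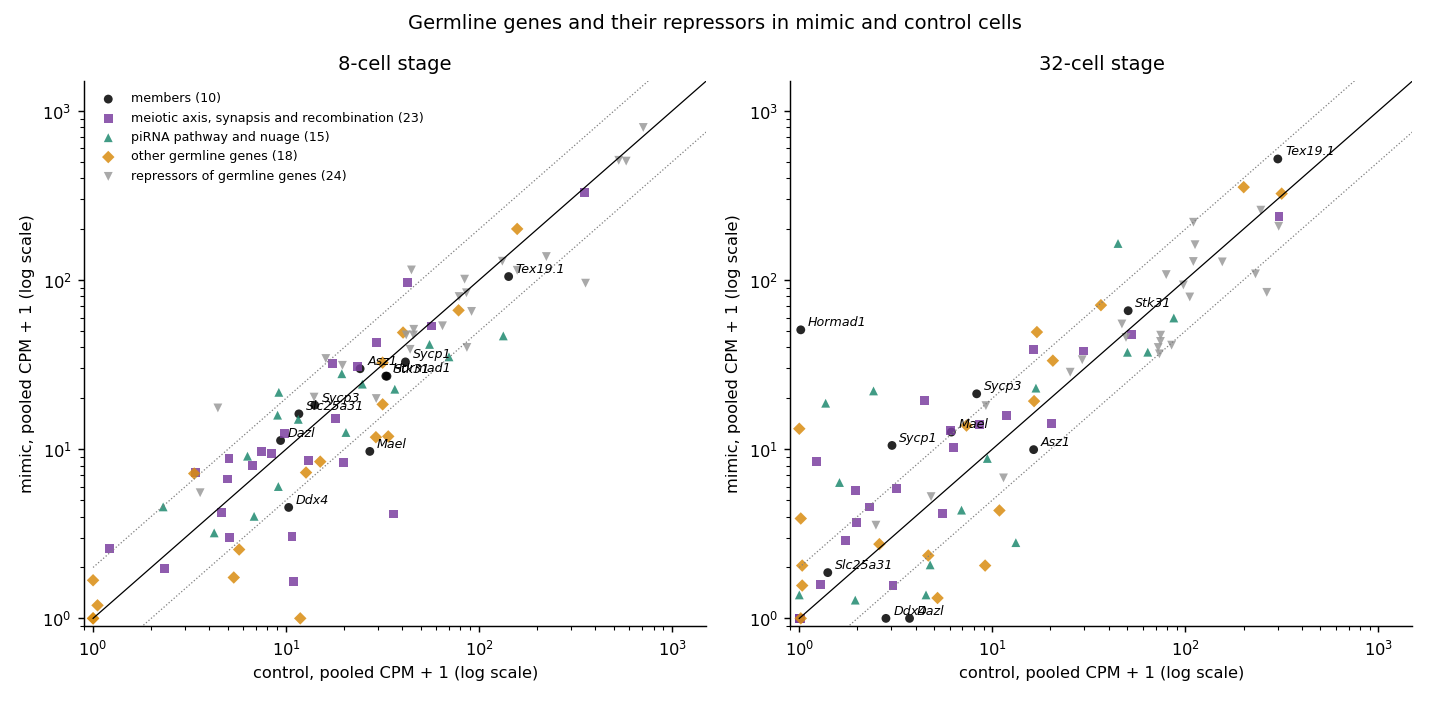
Pooled CPM + 1 in mimic against control cells at each stage, on log axes, for the members and the tested genes of the other 4 lists; the solid line marks equal levels and the dotted lines a log2 change of 1. Hormad1 lies at the left edge of the 32-cell panel and close to the line in the 8-cell panel.

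Transcripts of other cells, or left by the egg, were looked for with lists of markers, which cannot tell these sources apart. Of 12 oocyte markers, 9 had counts in 8-cell control, 10 in 8-cell mimic, 2 in 32-cell control and 6 in 32-cell mimic cells. Their summed level per cell ranged from 4.33 to 400.2 CPM (median 77.7), from 0 to 223 (median 64), from 0 to 17.8 (median 0) and from 0 to 33.1 CPM (median 0). Zp3, of the egg coat, was at 66.7, 17.2, 0.404 and 1.58 CPM. In all, 6 of the 12 oocyte markers were at 0 in 32-cell mimic cells, Bmp15 and Btg4 among them. Of 10 granulosa and cumulus cell markers 4 had counts in each group, summing to 120.8, 52.2, 9.49 and 36.98 CPM pooled, and 6 were at 0. Amhr2 alone gave 105.6 CPM in 8-cell control and 46.5 CPM in 8-cell mimic cells. In 32-cell mimic cells Hsd17b1 alone gave 27.3 CPM, so these sums mostly reflect single genes. All 6 embryo markers, Pou5f1 among them, had counts in every group, and their sum was at least 354 CPM in every cell. The part of these markers in the members' levels was not tested.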

How the data were processed

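Single cells were lysed and their polyadenylated RNA amplified with the Smart-seq2 protocol (20 and then 11 PCR cycles) and sequenced without molecular identifiers or strand. The authors mapped the reads to mm10 with STAR 2.5.1b, after quality control with FastQC, and the deposited table holds expected counts per gene and cell from RSEM 1.3.0, already whole numbers. The study's limits of 3000 genes per cell and 10% mitochondrial counts removed 0 cells here.

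Counts were scaled to CPM without mitochondrial genes and summed over the cells of each group in Python 3.11.15 (numpy 2.4.6, pandas 2.3.3, scipy 1.17.1). Changes are differences of log2(CPM + 1) among genes at 1 CPM or more over all cells, and a change of 1 is called past the fold. Intervals are 95% exact Poisson for levels and exact binomial (Clopper-Pearson) for shares, and they cover counting error only, since PCR reads are not independent molecules. With no embryo given for a cell, each group was 1 sample and no test between conditions was run. The step that counts genes past the fold was run on simulated counts with known changes, which checks the code and is no test of conditions. Cells were clustered in Seurat 5.3.0 (1985 variable genes, 25 principal components). The factors of edgeR 4.0.16 and DESeq2 1.42.0 served only as other scalings. Alternatives also covered pseudocounts, filters, thinning, runs of cell numbers (a gap of over 5 starts a run) and 8-cell cells split by Xist and Y-linked counts. Kdm5d was left out of the Y-linked sum after the data were seen, since cells with Xist held up to 5 counts of it. Gene positions are from GENCODE M21 (GRCm38).

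The members and gene lists were chosen with earlier results of these data known. Named were all members and, from each other list, genes past the fold by size of the change, at most 4 in each direction from 32-cell control to mimic and at most 2 in the other comparisons. The 5 genes most like Hormad1 and its neighbours in the ranking were also named. Sec1, Chpt1, Tex19.2, E2f6, Atf7ip and single markers of other cell types were named after their values were seen.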

Additional observations from a re-analysis of the deposited data

How the results depend on the processing

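Hormad1 was higher in 32-cell mimic than control cells under every scaling, averaging, pseudocount, thinning and left-out run tried, while the size of its log2 change (5.64) depended on the setting. It was 5.47 with median-of-ratios factors, 3.92 as a mean of log2(CPM + 1) over cells, 5.37 with thinned cells, 8.73 with a pseudocount of 0.1 CPM, 3.45 with one of 5 CPM, and 5.21 to 5.96 with 1 run of cell numbers left out. Run 1 of 8-cell control holds 28 of its 30 cells, so leaving it out rests on 2 cells. With runs left out in turn, the change from 8-cell to 32-cell control ranged from -5.12 to 0.025 for Hormad1, from -1.64 to 1.90 for Dazl, from -3.37 to 1.49 for Ddx4, from -2.41 to 2.62 for Mael, from -0.99 to 1.12 for Sycp3 and from -3.54 to 0.49 for Slc25a31. The change from 8-cell control to mimic ranged from -0.39 to 4.76 for Hormad1, from -1.29 to 2.18 for Ddx4 and from -1.60 to 3.28 for Mael, and that from 32-cell control to mimic from -0.50 to 1.57 for Mael. Without run 1 of 32-cell mimic cells, 1587 genes were lower there instead of 1057.

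With 8-cell cells limited to those with more Y-linked counts, the mimic stage change was 3.31 for Asz1 and 0.45 for Slc25a31. Counting Kdm5d as Y-linked, an alternative chosen after seeing the data that left 3 8-cell mimic cells with Xist only, gave a mimic stage change of 1.25 for Sycp1 and 0.90 for Slc25a31 and an 8-cell change of 1.36 for Ddx4.

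Counts of members past the fold were small and moved easily, and nothing is read from them. From 32-cell control to mimic, 4 were higher (1 at a log2 change of 2, 2 to 4 with runs left out) and 2 lower (0 with the mean of log2(CPM + 1) over cells, the pseudocount of 5 CPM, a minimum of 5 CPM or a log2 change of 2, and 1 to 3 with runs left out). Of all tested genes 13.0% to 17.4% were higher and 8.39% to 12.6% lower with runs left out. At a log2 change of 2, 454 of the 12582 were higher and 230 lower. From 8-cell control to mimic, 0 were higher (1 among cells with Xist only, with or without Kdm5d, and 0 to 6 with runs left out) and 2 lower (1 with the pseudocount of 5 CPM or the minimum of 5 CPM, 0 at a log2 change of 2, 4 among cells with Xist only, 6 with Kdm5d counted, 6 among cells with more Y-linked counts, 1 to 2 with runs left out). Of all tested genes 13.8% were higher and 15.3% lower among cells with Xist only, and 14% and 26.9% with Kdm5d counted. Among cells with more Y-linked counts 18.7% and 21.6% were. The 6 higher arose without run 1 of 8-cell control, where 37.6% of all tested genes were higher and 12.8% lower. Between control stages 1 was higher (0 with median-of-ratios factors, with Xist-only cells, with Kdm5d counted or at a log2 change of 2, 3 with more Y-linked counts, 1 to 5 with runs left out) and 6 lower (2 to 6 with runs left out). Of all tested genes 31% were higher with Xist-only cells, 32.3% with Kdm5d counted and 36.5% with more Y-linked counts. With runs left out 28.6% to 45.4% were higher and 17.9% to 25% lower. At a log2 change of 2, 1727 genes were higher and 1179 lower. Between mimic stages 2 were higher (4 with Kdm5d counted, 1 at a log2 change of 2, 1 to 3 with runs left out) and 5 lower (2 with the mean of log2(CPM + 1) or with Kdm5d counted, 1 with more Y-linked counts, 3 with the minimum of 5 CPM or a log2 change of 2). Of all tested genes 42% were higher and 17.9% lower with Kdm5d counted, and 38.9% and 18% with more Y-linked counts. With runs left out 3855 to 4095 genes were higher and 2487 to 2721 lower. At a log2 change of 2, 1991 and 1007 were.

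Of all tested genes, a log2 change of 2 left 454 higher and 230 lower from 32-cell control to mimic, 336 and 423 from 8-cell control to mimic, 1727 and 1179 between control stages and 1991 and 1007 between mimic stages. The main counts were 1672 and 1057, 1432 and 1560, 3796 and 2836, and 4017 and 2472. The pseudocount of 5 CPM gave 722 and 453 at 32 cells and 641 and 664 at 8 cells. The minimum of 5 CPM gave 927 and 621 at 32 cells, 932 and 944 at 8 cells and 1889 lower between control stages. The mean of log2(CPM + 1) over cells gave 1093 higher at 32 cells and 623 higher at 8 cells. With more Y-linked counts 2354 genes were higher and 2723 lower at 8 cells, with Kdm5d counted 3389 were lower, and without run 1 of 8-cell control 4730 were higher at 8 cells and 5708 between control stages. Median-of-ratios factors moved the median stage change of all tested genes from 0.17 to 0.06 in control and from 0.26 to 0.08 in mimic cells, and TMM factors the latter to 0.14. The cause of these shifts was not tested. No paired analysis was possible because the labels give no embryo for a cell and no test was run.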
